A study of Mus musculus with 6 samples.

Results

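Acyl-CoA thioesterases split the thioester bond of fatty acyl-CoA and release a free fatty acid and coenzyme A. Mouse has a type I group, Acot1 to Acot6, whose genes lie side by side and whose products are closely related hydrolases of the cytosol (ACOT1), the mitochondrial matrix (ACOT2) and peroxisomes (ACOT3 to ACOT6). The type II enzymes, among them ACOT7, ACOT8, ACOT9, ACOT12 and ACOT13, have a different, hotdog-type fold and are encoded at separate loci. In mouse tissues Acot1 is known as a target of the fatty acid receptor PPAR alpha and is induced by fasting, which is background and not a result of these data.

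Of 33017 genes in the deposited count table, 10 were taken here by their symbols: Acot1, Acot2, Acot3, Acot4 and Acot5 of type I, and Acot7, Acot8, Acot9, Acot12 and Acot13 of type II. All 10 were found, and 8 of them had enough counts to be tested, Acot3 and Acot5 being too low. The members were found by symbol, but the family was chosen by the model and control counts of these same libraries, among which Acot1 stood near the top of the ranking. The differences between the groups below are therefore a description and carry no test of their own. The libraries were made from poly-A selected RNA of frozen mouse small intestine, 3 labelled model and 3 labelled control. The title and design of the series speak of simulated microgravity and radiation acting together and of a protective compound. The labels give neither strain, age, sex, dose nor duration, and say of no library that it received the compound. Whether each library is a separate animal is not stated either, so the spread within a group may be technical.

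Library totals lay between 35007515 and 45285564 counts. Levels are CPM, read counts scaled to a common library size with TMM factors. Means carry their SD over the 3 libraries of a group (n = 3), and log2 fold changes are from edgeR, model over control, with a standard error (SE). Not all libraries were alike. Control 3 had 2320 CPM in the sum of 6 ileum markers, against 100 to 238 CPM in the other 5 libraries, and 241 CPM in the sum of 7 markers of the proximal small intestine, against 3370 to 5700 CPM. Model 1 was high in short genes: among tested genes of at most 2.24 kb the median deviation from the gene mean was 0.42 on the log2 scale, and among those of at least 7.4 kb it was -0.39, while in the other 5 libraries these medians lay between -0.18 and 0.08 and between 0 and 0.24. Model 3 held pancreatic acinar RNA, with 5500 CPM in the sum of 8 markers, against at most 26.4 CPM elsewhere. In bulk tissue fewer cells of a type and less RNA per cell cannot be told apart.

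How far reads can be assigned to one type I gene depends on their sequence, which is shown first. The coding sequences of Acot1 and Acot2, of 1257 and 1359 bases without the stop codon, were identical at 95.6% of aligned bases, whereas the other pairs among Acot1 to Acot6 shared between 75.3% and 85.8%. The alignment of Acot1 and Acot2 also holds 144 gap bases, which the 95.6% leaves out. Among stretches of 90 aligned bases without a gap, the one that differs most between these genes holds 14 mismatches, printed in capitals here. It lies at coding bases 797 to 886 of Acot1 and 920 to 1009 of Acot2, both on chromosome 12, from the GENCODE transcripts of GRCm38.
Acot1: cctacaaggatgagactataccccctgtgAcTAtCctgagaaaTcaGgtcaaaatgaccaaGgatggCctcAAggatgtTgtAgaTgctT
Acot2: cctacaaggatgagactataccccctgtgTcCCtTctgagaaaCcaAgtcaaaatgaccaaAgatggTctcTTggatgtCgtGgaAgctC
Directly after this stretch follow 273 bases without any difference between both genes, the longest such run, at coding bases 887 to 1159 of Acot1. The run is shown because no read that falls within it can tell the genes apart.
Acot1 and Acot2: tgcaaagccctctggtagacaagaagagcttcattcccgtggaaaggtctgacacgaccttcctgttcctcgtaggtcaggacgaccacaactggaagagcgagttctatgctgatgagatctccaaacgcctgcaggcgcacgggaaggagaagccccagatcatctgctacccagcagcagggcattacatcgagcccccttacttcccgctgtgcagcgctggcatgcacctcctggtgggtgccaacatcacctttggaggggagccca

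Of all stretches of 100 bases along the Acot1 transcript, 21.9% occurred unchanged in a transcript of another gene, mostly Acot2, and for Acot2 the share was 17.1%, all of it with Acot1. It was 16.6% for Acot3, 8.85% for Acot4 and 8.32% for Acot5, partly with each other and partly with 4732463B04Rik, a gene on the opposite strand. The gene that shared most with Acot3 was Gm49366. Among the type II genes, Acot7 and Acot13 shared no such stretch, Acot9 shared 0.968% with Acot10 (20.2% for stretches of 50 bases), Acot8 shared 13.8% with its neighbour Snx21 on the opposite strand, and Acot12 shared 1.69% with the antisense gene 4833422C13Rik. The sources used here do not give read length, strand setting or the treatment of reads with several matches, so values of the type I genes, and of Acot8 and Acot9, are uncertain to that extent.

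Acot1, the cytosolic long-chain thioesterase, had the widest difference between the groups. It had 20.7, 8.23 and 13.6 CPM in model 1, 2 and 3, against 3.67, 2.51 and 2.23 CPM in control 1, 2 and 3, from 597, 363 and 479 reads in the model libraries and 176, 94 and 94 reads in the control libraries. Every model library lay above every control library, and model 2, the lowest of the model libraries, was still above control 1, the highest control library. The means were 14.2 ± 6.23 CPM in model and 2.81 ± 0.763 CPM in control tissue, and the log2 fold change was 2.33 (SE 0.4). It was between 1.96 and 2.61 in the fits that left out 1 library, 1.81 without control 3 and model 1, and 2.35 with the trend of each library with gene length removed.

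Acot2, the mitochondrial enzyme encoded next to Acot1, had 15, 9.5 and 15.8 CPM in the model libraries, against 7.84, 5.53 and 2.59 CPM in the control libraries. The groups did not overlap, although model 2 at 9.5 CPM was close to control 1 at 7.84 CPM. Its means were 13.4 ± 3.43 CPM in model and 5.32 ± 2.63 CPM in control tissue (log2 fold change 1.33, SE 0.43). Without control 3 the log2 fold change was 1.02, and without control 3 and model 1 it was 0.91.

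Acot4, a peroxisomal enzyme that in mouse cleaves succinyl-CoA, had 5.54, 2.49 and 4.62 CPM in the model libraries, against 3.59, 2.73 and 2.28 CPM in the control libraries. Its groups overlapped, as model 2 lay between control 2 and control 3, and the log2 fold change of 0.55 (SE 0.39) was 0.16 without control 3 and model 1.

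The peroxisomal genes Acot3 and Acot5 were near the limit of detection. Acot3, a long-chain enzyme in mouse, had 6, 0 and 4 reads in the model libraries and 0 reads in each control library, where a count of 0 allows up to 3 reads, or at most 0.0802 CPM. Acot5, a medium-chain enzyme in mouse, had 0, 0 and 4 reads in the model libraries and 2, 0 and 8 reads in the control libraries, so neither gene gave a difference that this depth could show. Both share stretches with their more abundant neighbours, as given above.

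Summed over the 5 type I members, the model libraries had 41.4, 20.2 and 34.3 CPM, against 15.1, 10.8 and 7.29 CPM in the control libraries. The groups did not overlap in this sum, most of which came from Acot1 and Acot2, the genes already without overlap. It does not depend on how reads were split between Acot1 and Acot2. It may still depend on whether reads matching both genes were counted, which is not known. Acot6, the remaining gene of the cluster and not among the 10, had 8.48, 3.54 and 4.59 CPM in the model libraries and 2.65, 3.37 and 2.45 CPM in the control libraries (log2 fold change 0.97, SE 0.4), again without overlap, although model 2 and control 2 lay close together.

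**Figure D1:**
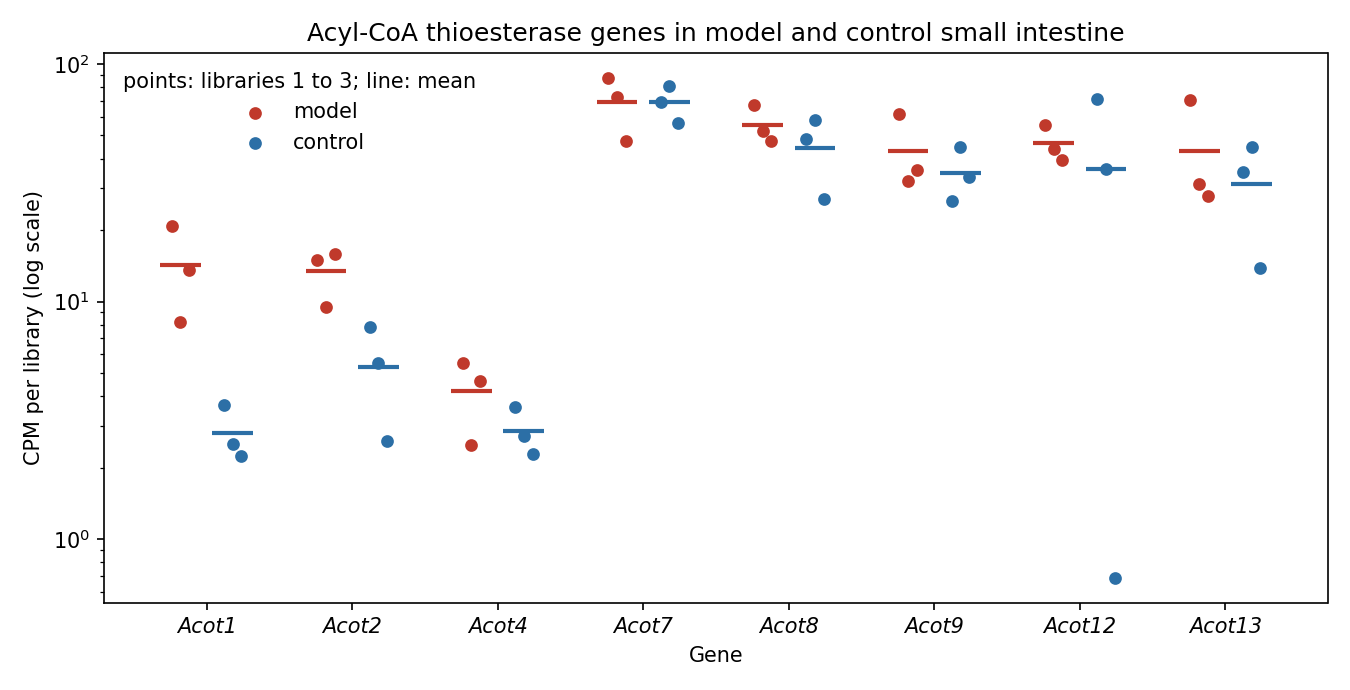
CPM (log scale) of the 8 tested thioesterase genes, with 1 point for each library, model left of control, and a line at the group mean. Acot1 and Acot2 are the genes without overlap between the groups, and Acot12 has 1 control library at 0.689 CPM.

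Acot1 and Acot2 also differed in their proportion. Acot1 made up 58%, 46.4% and 46.3% of the reads counted for both genes in model 1, 2 and 3 (exact binomial 95% intervals 54.9% to 61%, 42.9% to 50% and 43.3% to 49.4%), against 31.9%, 31.2% and 46.3% in control 1, 2 and 3 (28% to 36%, 26% to 36.8% and 39.3% to 53.4%). Control 3 thus had the same share as model 3, and control 1 and 2 lay below all model libraries. In control 3 this share came with the lowest Acot2 level of the 6 libraries, 2.59 CPM, and not with a high Acot1 level. The intervals cover counting error only.

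**Figure D2:**
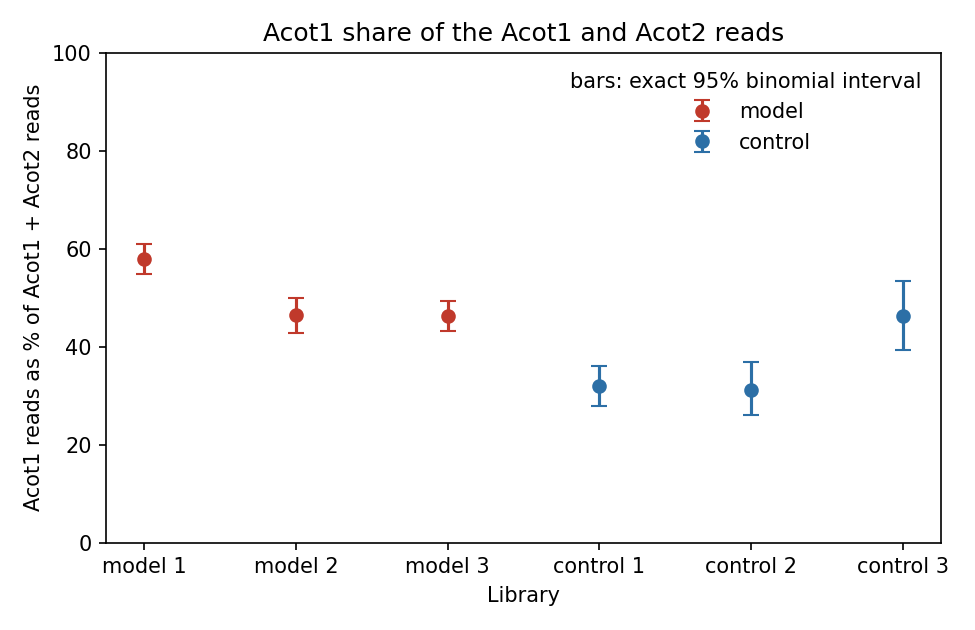
Reads of Acot1 as a percentage of the reads of Acot1 and Acot2 together in each library, with exact binomial 95% intervals that cover counting error only. Control 1 and 2 are at 31.9% and 31.2%, and the other 4 libraries between 46.3% and 58%.

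The cytosolic acetyl-CoA hydrolase gene Acot12 had the widest spread within a group. It had 55.5, 43.9 and 39.5 CPM in the model libraries, against 71.5, 36.2 and 0.689 CPM in the control libraries. Control 3, with 29 reads, stood apart from the other 5 libraries, which had 1355 to 3428 reads. The means were 46.3 ± 8.22 CPM in model and 36.1 ± 35.4 CPM in control tissue, and the fitted difference on the log2 scale was 0.36 (SE 1.17), or -0.2 without control 3. The low value came in the library in which 5 of the 7 proximal markers were below 4 CPM: Lct (lactase) at 0.997 CPM, Gata4 at 1.9 CPM, Fabp1 at 0.926 CPM, Onecut2 at 1.19 CPM and Cyp2b10 at 3.59 CPM. The ileal bile acid binding protein gene Fabp6 was at 1170 CPM there and at most at 0.285 CPM in any other library. The part of these markers in the Acot12 value was not tested.

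**Figure D3:**
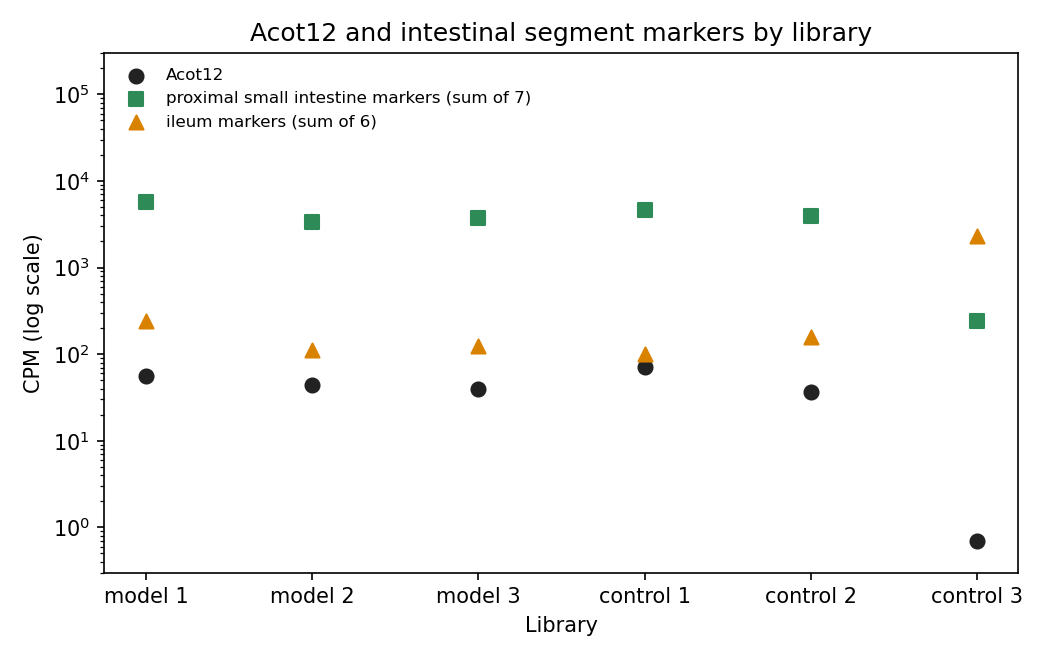
CPM (log scale) of Acot12, of the sum of 7 proximal small intestine markers and of the sum of 6 ileum markers in each library. In control 3 Acot12 is at 0.689 CPM, the proximal sum at 241 CPM and the ileum sum at 2320 CPM, whereas in the other 5 libraries Acot12 lies between 36.2 and 71.5 CPM.

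Acot13 (also called Them2), a small thioesterase associated with mitochondria, had 70.3, 31.2 and 27.7 CPM in the model libraries, against 35.2, 44.6 and 13.9 CPM in the control libraries. The groups overlapped, with model 1 highest and control 3 lowest. The log2 fold change was 0.46 (SE 0.5), and it was -0.08 without model 1. Its merged exons span 0.744 kb, among the short genes of at most 2.24 kb, which were high in model 1 and low in control 3. With the length trend removed the value was 0.25, and the part of gene length was otherwise not tested.

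Acot8, the peroxisomal enzyme of broad chain-length range, had 67.5, 52.1 and 47.3 CPM in the model libraries, against 48.1, 58 and 27 CPM in the control libraries, with overlapping groups (log2 fold change 0.33, SE 0.31). The mitochondrial gene Acot9 had 61.4, 32.3 and 35.7 CPM in the model libraries, against 26.6, 44.7 and 33.4 CPM in the control libraries (0.31, SE 0.31), and its value was -0.04 without model 1. Acot7, a cytosolic long-chain thioesterase best known from brain, had 87.3, 72.5 and 47.4 CPM in the model libraries, against 69.3, 81.1 and 56.7 CPM in the control libraries, and its means were 69.1 ± 20.2 CPM in model and 69 ± 12.2 CPM in control tissue. Among the model libraries, model 1 had the highest level of each of the 5 type II members. Summed over the 5 type II members, the model libraries had 342, 232 and 198 CPM, against 251, 265 and 132 CPM in the control libraries, so that the groups overlapped.

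**Figure D4:**
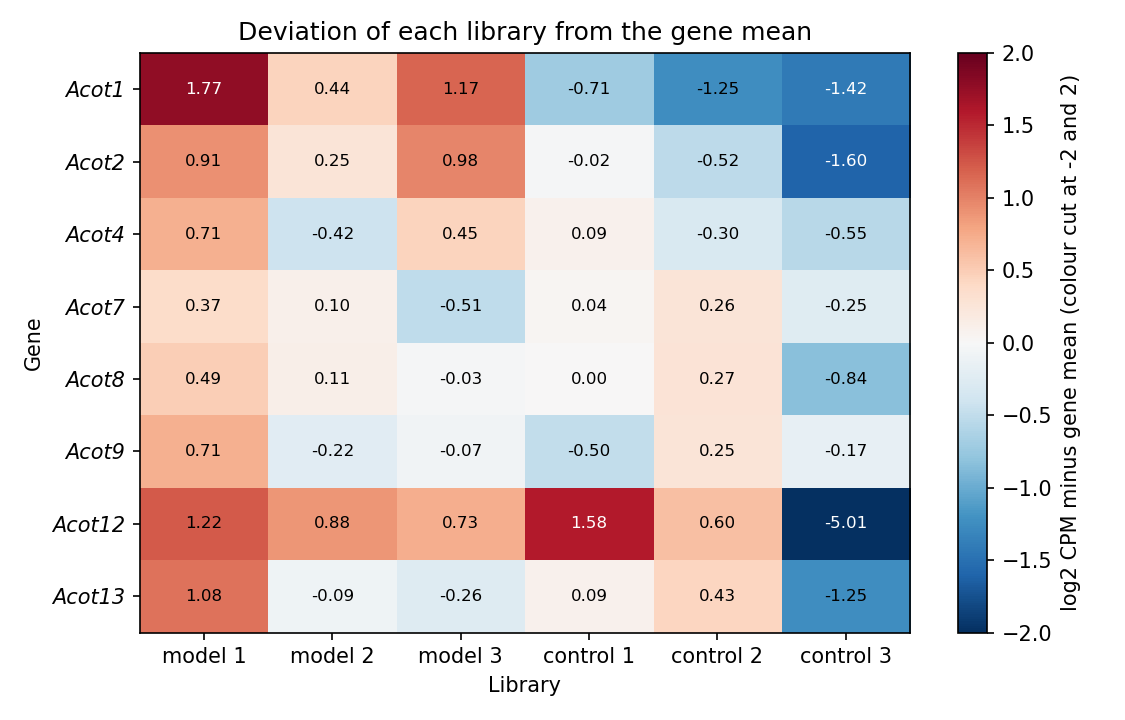
Log2 CPM of each tested thioesterase gene in each library minus the mean of that gene over the 6 libraries, with colours limited at -2 and 2. Model 1 is above the mean for all 8 genes (0.37 to 1.77) and control 3 below it for all 8 (-5.01 to -0.17), while only Acot1 and Acot2 are above their mean in all model libraries and below it in all control libraries.

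Across the family, the fitted level was higher in model tissue for 8 of the 8 tested members, with Acot7 at 0.00086 on the log2 scale, where 48.2% of all tested genes had a positive value. The median log2 fold change was 0.41 over the members and -0.02 over all tested genes. Acot1 and Acot2, 2 of the 8, were higher in the lowest model library than in the highest control library, which held for 4.73% of tested genes, and 0 of the 8 showed the opposite order, which held for 6.33%. The edgeR quasi-likelihood test called 0 of 15904 genes at a Benjamini-Hochberg adjusted p under 0.05 (0%), members included, and 765 genes (4.81%) had an unadjusted p under 0.05. DESeq2 called 25 of 15836 genes (0.158%), Acot1 among them. The family was chosen by these same counts with Acot1 near the top, so that call is no separate test of Acot1. The number of members with a positive value depended on model 1 and control 3: it was 5 without model 1, 6 without control 3 and 3 without both, where 47.6% of all tested genes were positive. The 3 were Acot1, Acot2 and Acot4, the tested type I genes.

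Per length, the family in the small intestine was mostly of type II. Levels per kilobase (CPM divided by the length of the merged exons) in model tissue were highest for Acot13, at 57.9 ± 31.7, followed by Acot7 at 32.5 ± 9.51, Acot8 at 27.8 ± 5.28, Acot9 at 19 ± 6.99, Acot12 at 14.1 ± 2.5, Acot2 at 6.12 ± 1.56, Acot1 at 3.62 ± 1.59 and Acot4 at 0.632 ± 0.234. In control tissue the means had the same order: 42 ± 21.2 for Acot13, 32.5 ± 5.74 for Acot7, 22.2 ± 7.94 for Acot8, 15.3 ± 4.04 for Acot9, 11 ± 10.8 for Acot12, 2.42 ± 1.2 for Acot2, 0.716 ± 0.195 for Acot1 and 0.429 ± 0.0996 for Acot4. The ranges of neighbours in this order overlapped in the model libraries, except between Acot12 and Acot2 and between Acot1 and Acot4. In the control libraries they overlapped except between Acot2 and Acot1 and between Acot1 and Acot4. Type I members made up 5.74%, 4.98% and 9.38% of the summed level per kilobase of the family in the model libraries, against 3.56%, 2.21% and 2.92% in the control libraries, without overlap. Most of this share came from Acot1 and Acot2, the genes already without overlap, so it is no separate result.

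Acot1 and Acot2 are near-identical in the aligned bases of their coding parts but not directly upstream of their starts. The 250 bases before the RefSeq start are printed for these members because they were the pair without overlap between the groups: chr12:84009252-84009501 for Acot1 and chr12:83987611-83987860 for Acot2, both on the plus strand of GRCm38.p6, a build other than the GRCm39 of the counts.
Acot1: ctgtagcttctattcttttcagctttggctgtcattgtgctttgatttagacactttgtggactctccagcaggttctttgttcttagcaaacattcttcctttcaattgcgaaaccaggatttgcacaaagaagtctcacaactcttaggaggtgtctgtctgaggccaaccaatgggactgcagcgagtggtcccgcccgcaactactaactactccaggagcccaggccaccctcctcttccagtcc
Acot2: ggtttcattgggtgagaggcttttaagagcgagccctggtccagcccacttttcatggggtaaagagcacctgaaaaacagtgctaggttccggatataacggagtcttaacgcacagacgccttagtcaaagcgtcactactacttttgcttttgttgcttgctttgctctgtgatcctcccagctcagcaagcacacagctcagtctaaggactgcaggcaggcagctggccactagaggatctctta
The longest run they have in common is 9 bases. Nuclear receptors such as PPAR alpha with RXR bind repeats of AGGTCA. The direct repeat, 2 copies of AGGTCA with any 1 base between, was searched on both strands from 250 bases before to 50 after the start, together with the single AGGTCA, which the repeat contains. The repeat was found in 0 of the 9 members that have a promoter entry and in 0.0481% of 27025 genes. The single AGGTCA was found for 4 of the 9, namely Acot3, Acot4, Acot5 and Acot12, and for 18.1% of all genes. Neither sequence above holds it, which says only that these letters are not in this window.

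Among the 5 tested genes with the pattern most like that of Acot1, by the root mean square difference of centred log2 CPM over the 6 libraries, were Cyp4b1, Akr1b7, Pou1f1 and Cyp27a1. The cytochrome P450 gene Cyp4b1 was nearest, at a difference of 0.36, where the median over all 15903 other genes was 1.28. It had 266, 94.9 and 186 CPM in the model libraries, against 70.8, 58 and 28.5 CPM in the control libraries. The aldo-keto reductase gene Akr1b7 had 146, 68.5 and 121 CPM in the model libraries, against 35.7, 47.1 and 18.4 CPM in the control libraries, and Cyp27a1, the sterol 27-hydroxylase of bile acid synthesis, had 188, 52.8 and 165 CPM in the model libraries, against 45.4, 48.1 and 27.8 CPM in the control libraries. As for Acot1, model 2 was the lowest model library for each of these 3 genes and control 3 the lowest control library. They were chosen for a pattern like that of Acot1, so this shared order is no separate result. Pou1f1, a pituitary transcription factor gene, stayed below 2 CPM in every library. Nearest to Acot13, the member with the highest level per kilobase, were Alkbh7, Ndufa5, Mrpl34, Ndufc1 and Mrpl12, at differences of 0.03 to 0.1. Ndufa5 and Ndufc1 encode subunits of respiratory complex I and Mrpl34 and Mrpl12 proteins of the mitochondrial ribosome. Ndufa5 had 137, 58.4 and 54.5 CPM in the model libraries, against 63.3, 87.9 and 26.5 CPM in the control libraries. Model 1 was again highest and control 3 lowest, a likeness to Acot13 by which Ndufa5 was chosen.

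Other genes of acyl-CoA metabolism were set beside the family in lists chosen with earlier results of these data known, and edgeR called 0 of their genes. Acyl-CoA synthetases, which make the substrates of the thioesterases, had a positive log2 fold change for 11 of 16 tested genes (median 0.12), against 48.2% of all tested genes, but for 7 of 16 without control 3 (median -0.01), against 53.1% of all tested genes, and 8 of 16 without control 3 and model 1 (median -0.05). Slc27a4, a fatty acid transport protein with synthetase activity, had 1100 ± 215 CPM in model and 787 ± 371 CPM in control tissue, the related Slc27a2 had 346 ± 148 CPM in model and 134 ± 98 CPM in control tissue, and the long-chain synthetase gene Acsl1 had 179 ± 56.7 CPM in model and 97.7 ± 47 CPM in control tissue. Carnitine shuttle and mitochondrial oxidation genes were positive for 18 of 19 (median 0.43), with Hadh, a 3-hydroxyacyl-CoA dehydrogenase, at 728 ± 257 CPM in model and 521 ± 240 CPM in control tissue, the thiolase Acaa2 at 620 ± 359 CPM in model and 259 ± 201 CPM in control tissue, and Hadha, of the trifunctional protein, at a log2 fold change of 0.34 (SE 0.33). Peroxisomal oxidation genes were positive for 15 of 20 (median 0.36). The fold changes of the peroxisomal transporter gene Abcd3 (0.25, SE 0.38, log2) and the phytanoyl-CoA hydroxylase gene Phyh (0.97, SE 0.6) came from overlapping groups. Without control 3 the carnitine shuttle list was positive for 15 of 19 genes (median 0.18) and the peroxisomal list for 16 of 20 (median 0.22). Without control 3 and model 1 the carnitine shuttle list was positive for 6 of 19 genes (median -0.14) and the peroxisomal list for 10 of 20 (median -0.04).

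Of 10 tested PPAR receptors and partners, with Ppard listed but absent by symbol from the count table, 7 had a positive value (median 0.2). Without control 3 it was 5 of 10 (median -0.02), and without control 3 and model 1 it was 7 of 10 (median 0.12). Their most abundant members were Hnf4a, a nuclear receptor of the intestinal epithelium (-0.15, SE 0.27, on the log2 scale), the co-repressor gene Ncor1 (0.04, SE 0.52) and the PPAR partner gene Rxra (0.35, SE 0.22). Ppara itself had 37.1, 40.5 and 75.2 CPM in the model libraries, against 40.8, 42.7 and 25.8 CPM in the control libraries, with overlapping groups. Of 17 tested PPAR alpha targets other than thioesterases, 15 had a positive value (median 0.6). Without control 3 it was again 15 of 17 (median 0.34), against 53.1% of all tested genes. Without control 3 and model 1 it was 12 of 17 (median 0.16), against 47.6% of all tested genes. Fabp1, the liver-type fatty acid binding protein, had 1520, 1000 and 928 CPM in the model libraries, against 1220, 822 and 0.926 CPM in the control libraries, so its lowest value was in control 3, as for Acot12. Creb3l3, a transcription factor gene of lipid metabolism, had 776, 359 and 487 CPM in the model libraries, against 407, 322 and 26.8 CPM in the control libraries. Acyl-CoA and fatty acid binding proteins had a positive value for 5 of 6 tested genes (median 0.43). Without control 3 it was also 5 of 6 (median 0.21), but without control 3 and model 1 it was 2 of 6 (median -0.05). The 5 of the fit with all libraries included Dbi, the acyl-CoA binding protein, at 297 ± 144 CPM in model and 208 ± 81.1 CPM in control tissue. They also included Acbd4, at 130 ± 45.7 CPM in model and 83.6 ± 41.9 CPM in control tissue.

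Among other thioesterases and related hydrolases, 6 of 8 tested genes had a positive value (median 0.3). Without control 3 it was 6 of 8 (median 0.22), and without control 3 and model 1 it was 5 of 8 (median 0.09). The most abundant were the depalmitoylase genes Abhd17c (0.66, SE 0.29, on the log2 scale), Ppt1 (0.28, SE 0.22) and Lypla2 (0.32, SE 0.26). Acot11, a type II thioesterase known from brown fat, had 14.9, 70.2 and 38.3 CPM in the model libraries, against 56.6, 54.8 and 35.1 CPM in the control libraries. Of the stretches of 100 bases along its transcript, 23.1% also occurred in Fam151a. Model 1 was lowest for Acot11, whereas among the model libraries it was highest for each type II member of the family. The merged exons of Acot11 span 6.056 kb. Those of Acot4 and Acot6 span 6.674 and 6.413 kb, and both genes were highest in model 1. The part of gene length was not tested. Acot10, a near copy of Acot9 with 97.2% identity in coding bases, was listed at 0 in all 6 libraries, so how reads that match both were counted is not known.

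**Figure D5:**
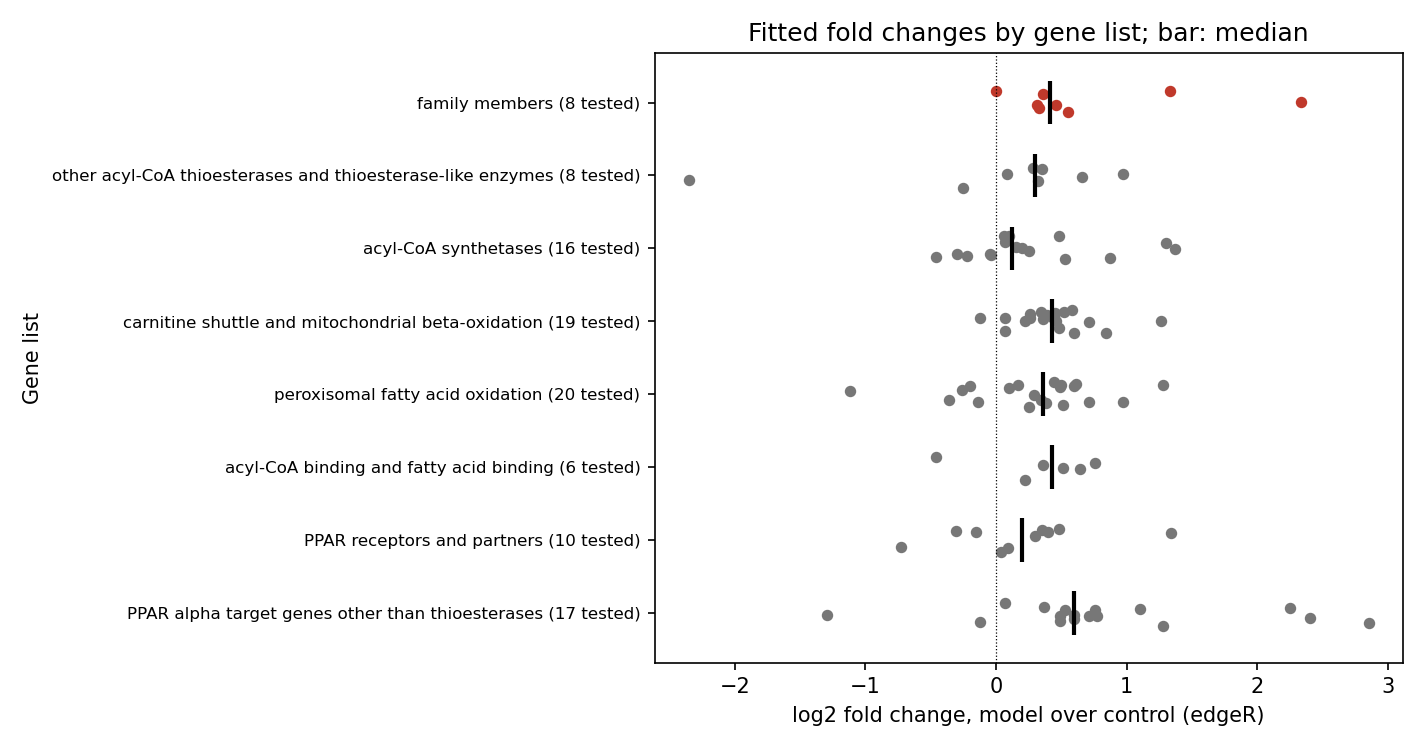
Log2 fold changes (edgeR, model over control) of tested genes of the thioesterase family and of 7 lists of acyl-CoA and PPAR genes, with 1 point for each gene and a bar at the median. The medians lie between 0.12 for acyl-CoA synthetases and 0.6 for PPAR alpha targets, and the family has Acot1 (2.33) and Acot2 (1.33) far to the right of its median of 0.41.

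Markers of other cells were set beside the type I result, since adipocytes and liver also express these genes. Adipoq, the adiponectin gene of adipocytes, was at 0, 0 and 0.057 CPM in the model libraries and at 0.0626, 0 and 12 CPM in the control libraries. Of the 7 adipocyte markers, 2 were above 0 in all libraries. The sum of all 7 was 106 to 201 CPM in the model and 80 to 114 CPM in the control libraries. Cidec, a lipid droplet gene that enterocytes also express, made up most of this sum in every library but control 3. It had 184, 98.5 and 138 CPM in the model libraries, against 69.3, 76.5 and 22.2 CPM in the control libraries. Alb, the hepatocyte albumin gene, was at most 0.45 CPM in the model and 1.07 CPM in the control libraries, and the sum of 7 hepatocyte markers was 6.49 to 18.2 CPM in the model and 5.16 to 20.5 CPM in the control libraries. The sum of 9 enterocyte markers was 22200 to 36800 CPM in the model and 17400 to 26900 CPM in the control libraries, with Fabp2 listed at 0 throughout. In control 3, the lowest, Anpep alone had 8570 CPM, against 1970 to 3460 CPM in the other libraries. Every other detected enterocyte marker was lowest in control 3, among them Alpi (276 CPM), Apoa4 (12.6 CPM) and Lct (0.997 CPM). The 6 smooth muscle markers summed to 855 to 1140 CPM in the model and 1140 to 1950 CPM in the control libraries. The part of the adipocyte, hepatocyte, enterocyte and muscle markers in the Acot1 and Acot2 values was not tested.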

How the data were processed

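Per the submitters' processing notes, the tools were FastQC, Trimmomatic, STAR and featureCounts and the genome was GRCm39. Versions, annotation and settings: not given in the sources used here. From these reads the authors deposited 1 table of raw counts, whole numbers of reads per gene symbol and library, with 6 columns each matched to its sample through the library name and 0 unmatched. Genes were kept by edgeR's filterByExpr (15904 of 33017), scaled by TMM and tested by the edgeR quasi-likelihood F test (robust dispersion, group as the only term) with Benjamini-Hochberg adjustment over all tested genes at 0.05 (R 4.3.3, edgeR 4.0.16, limma 3.58.1, DESeq2 1.42.0). The SE is |log2 fold change| over the square root of F. No library was a duplicate of another of its group (chi-square per degree of freedom 122.7 to 526.8). Genes were named by these rules: all members, the 5 genes nearest to Acot1 and to the member with the highest level per kilobase (log2 CPM with a prior count of 2), and the 3 most abundant tested genes of each list. Some genes that these rules name are not reported here. Acot6, Acot10, Acot11, Ppara and single markers were named after their values were seen. Members and lists were chosen with earlier results of these data known. Gene lengths (matched by symbol for 96.6% of tested genes) and transcripts came from GENCODE M21 on GRCm38, and promoters from RefSeq (GRCm38.p6, 9 of 10 members). The fits were tested on simulated data. Alternatives were other scalings, DESeq2, limma-voom, other filters, a replicate block and each library left out. Removal of the length trend, and the fit without control 3 and model 1, were added after seeing the data.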

Additional observations from a re-analysis of the deposited data

How the results depend on the processing

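With each library left out in turn, 0 genes were called by edgeR and the number of members with a higher fitted level in model tissue lay between 5 and 8. The log2 fold changes then lay between 1.96 and 2.61 for Acot1, 1.02 and 1.73 for Acot2, 0.31 and 0.83 for Acot4, -0.2 and 0.22 for Acot7, 0.09 and 0.59 for Acot8, -0.04 and 0.54 for Acot9, -0.2 and 1.33 for Acot12, and -0.08 and 0.83 for Acot13. Without control 3 and model 1 the number of such members was 3, with -0.33 for Acot7, -0.1 for Acot8, -0.07 for Acot9, -0.37 for Acot12 and -0.44 for Acot13, against 1.81 for Acot1, 0.91 for Acot2 and 0.16 for Acot4. The causes were not tested. Acot7, at 0.00086 in the reported fit, was at -0.07 with upper quartile scaling, -0.2 with scaling by library size alone, -0.03 with limma-voom, -0.0017 without a filter, -0.03 with at least 5 CPM in 3 libraries and -0.09 with the length trend removed. Scaling by library size alone moved the median of all genes to -0.21, against -0.02. DESeq2 called 25 genes and gave Acot1 a log2 fold change of 2.38 (DESeq2 Wald test, adjusted p = 0.000212), against an edgeR adjusted p = 0.851 and a range of 0.735 to 1 over the edgeR and limma-voom alternatives. The family was chosen by these same counts with Acot1 near the top, so these values show how the tools differ. They are no test of Acot1. Acot12 was at 1.89 with limma-voom and 1.36 with the replicate block, against 0.36. The labels give replicate numbers but do not say whether these pair the libraries. The deviations of same-numbered libraries correlated at -0.153, -0.266 and 0.309, and 2 of 6 libraries correlated best with their own number. So few values cannot decide whether the libraries were paired. With the replicate block 0 genes were called, 7 of 8 members were higher, and Acot7 was at -0.03 and Acot1 at 2.27. Levels per kilobase with the longest transcript were 5.43 for Acot1, 45.9 for Acot7 and 43.6 for Acot8 in model tissue. With windows of 50 and 150 bases the shared part of the transcript was 33.6% and 12.4% for Acot1, 27.7% and 10.2% for Acot2, and 20.2% and 0% for Acot9. AGGTCA was found on the given strand for 1 of the 9 members with a promoter entry (11.1%) and for 9.9% of all genes. Acot3 and Acot5 are limited by depth.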
